A study of Homo sapiens with 12 samples.

Results

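The genes described here encode subunits of dynactin and proteins that bind the minus ends of microtubules. They are DCTN1 to DCTN6, ACTR1A, ACTR10, CAMSAP1 and CAMSAP2, and each was followed through every probe set that the array annotation assigns to that symbol alone. A probe set is a group of short oligonucleotides on the array that together report 1 transcript. Of the 10 genes 9 had such a probe set, among 19775 genes on the array, with 25 probe sets of 54675, and ACTR1A is not analysed here. The set was chosen by the log2 signals of the tRNA vector arrays against the empty vector arrays, in which DCTN4 and CAMSAP2 were among the lowest genes. All values of the members in that comparison, and in the one with the hairpin vector that uses the same tRNA vector arrays, are therefore a description and carry no test. The cells were 293T, a human embryonic kidney line that carries the SV40 large T antigen. They were transfected transiently with plasmid by polyethylenimine and collected 48 hours later. There were 4 biological replicates, 1 array each, for cells that received a vector with the human tRNA gene chr1.tRNA68-Gly(GCC), 4 for a vector with an artificial hairpin for CU1276, and 4 for the empty vector. Per the labels CU1276 is a small RNA cut from this tRNA, and neither its level nor the share of cells transfected was analysed here. All 3 groups thus share plasmid and reagent.

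Cytoplasmic dynein carries cargo towards the minus ends of microtubules, and it works with dynactin, a large complex that joins the motor to its cargo and lets it move over long distances. Dynactin is built on a short filament of the actin-related protein made by ACTR1A. A shoulder of DCTN1, DCTN2 and DCTN3 projects from the filament, with DCTN1 reaching out to dynein and the microtubule. A pointed-end complex of DCTN4, DCTN5, DCTN6 and ACTR10 caps the filament at the end that helps to bind cargo adaptors, and capping protein closes the other end. CAMSAP1 and CAMSAP2 bind the free minus ends of microtubules, and CAMSAP2 stays on them and stabilises microtubules that are not held by the centrosome.

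The values are MAS5 signals, a linear intensity scale on which the authors had brought every array to the same trimmed mean. Probe sets in the lowest 40% by average log2 signal, below a geometric mean of 43.3, were called dim and not tested, which left 32768 probe sets for 13952 genes, and 19 of the 25 member probe sets were among them. Probe sets of a gene are numbered here from the brightest to the dimmest. In limma fitted to all 12 arrays 0 of these (0%) passed an adjusted p of 0.05 in any of the 3 comparisons, and 0 also passed a plain two-sample test. With replicate number as a block 0, 0 and 6 passed (tRNA over empty, hairpin over empty, tRNA over hairpin) and with the control RNA level given below as a block 4, 3 and 8, none of them a member. At an unadjusted p under 0.05 there were 1238 (3.78%) for the tRNA vector over empty, 867 (2.65%) for the hairpin vector over empty and 1271 (3.88%) for the tRNA over the hairpin vector. The neuronal and kidney genes known from this line had a signal above the filter for 5 of the 6 with a probe set (NEFL, NEFM, INA, EYA1 and PAX2, not LHX1), while other lists gave 2 of 3 B cell markers (CD79A and CD79B), 0 of 4 markers of other blood cells, 4 of 5 of fibroblasts (COL1A1, COL1A2, COL3A1 and DCN) and 2 of 4 of epithelia (CDH1 and EPCAM). Several of these signals were low beside the filter of 43.3. As geometric means they were 45.5 for DCN, 52.0 for CD79B, 64.8 for COL1A2 and for COL3A1 and 75.6 for CD79A, against 799 for COL1A1. Those of the neuronal and kidney genes above the filter ran from 134 (PAX2) to 4602 (NEFM). The summed signal of the B cell list was 120 to 252 on tRNA vector arrays, 156 to 264 on hairpin vector arrays and 166 to 287 on empty vector arrays. That of the fibroblast list was 907 to 1144, 843 to 1338 and 757 to 1313 on the same 3 groups, and that of the epithelial list 460 to 493, 388 to 487 and 407 to 499.8, so the groups overlapped in each. Their part in the results was not tested. RNA integrity, read as GAPDH signal at the 3′ end over that at the 5′ end, gave 1.36 ± 0.129 in tRNA vector cells, 1.35 ± 0.223 in hairpin vector cells and 1.33 ± 0.125 in empty vector cells (SD, n = 4). In bulk RNA such as this, fewer cells of a kind and less RNA per cell cannot be told apart. The control probe sets for Bacillus RNAs had 3 levels over the arrays, with means of 1726 to 1834 on arrays numbered 1, of 331 to 389 on those numbered 2 and of 20.0 to 26.1 on those numbered 3 and 4. The labels name no batch, so differences are also given within these 3 levels, each of which holds the 3 groups equally. The arrays numbered 1 also had the highest GAPDH ratios, 1.47 to 1.67 against 1.18 to 1.39 on the others. The same ratio for ACTB did not single out these arrays. It was 2.46, 2.40 and 3.05 on arrays numbered 1 (empty, tRNA and hairpin vector) and 3.30, 2.74 and 2.45 on those numbered 2. On those numbered 3 and 4 it was 1.83 to 2.26.

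With the tRNA vector the brightest probe sets of DCTN4 and CAMSAP2 had 0.758 and 0.725 of the empty vector signal, while those of the 7 other measured genes lay between -0.045 and 0.13 on the log2 scale. With the hairpin vector all 9 brightest probe sets lay between -0.091 and 0.15, and 0 of 9 passed the test. Neither DCTN4 nor CAMSAP2 had a further probe set that stood apart from the empty vector in the same way. The shoulder subunits, the other pointed-end subunits and CAMSAP1 are given after these genes.

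DCTN4 encodes a zinc-binding subunit of the pointed-end complex. Its brightest probe set had signals of 4525, 4085, 4071 and 4253 on tRNA vector arrays (in the order 1 to 4, as for the other groups), 5474, 5956, 5299 and 5382 on hairpin vector arrays and 4934, 5979, 5694 and 5785 on empty vector arrays. All 4 tRNA vector arrays lay below all arrays of the other groups, whereas the hairpin and empty vector arrays overlapped. The means were 4233 ± 211, 5528 ± 294 and 5598 ± 458 for the tRNA, hairpin and empty vector (SD, n = 4). The log2 fold change of the tRNA vector over the empty vector was -0.40 ± 0.078, a fold of 0.758. Throughout, ± on a log2 scale is the standard error from limma without a block (n = 4 arrays per group), so it includes differences between array numbers. DCTN4 was the second lowest of 13952 genes by moderated t. Within the 3 levels of control RNA, from array number 1 upwards, its log2 fold change was -0.12, -0.55 and -0.46. The smallest difference thus came from the arrays numbered 1, where the empty vector array was the lowest of its group. Over the hairpin vector it was -0.38 ± 0.078, again lower in 4 of 4 same-number comparisons, and this too has no test because the tRNA vector arrays served to choose the gene.

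The other DCTN4 probe sets did not share that pattern. The next brightest, of a type whose name marks possible cross-hybridisation with other transcripts, had 1050, 1921, 1972 and 1859 on tRNA vector arrays, 844, 1995, 1890 and 1872 on hairpin vector arrays and 1322, 2072, 1909 and 1634 on empty vector arrays. Array number 1 was the lowest in every group, and the groups overlapped throughout. Its log2 fold change of the tRNA vector over empty was -0.052 ± 0.27. Over arrays numbered 2 to 4 alone, where its signals varied less, it was 0.041, against -0.49 for the brightest probe set on the same arrays. The third probe set had 85.0, 176, 112 and 117 on tRNA vector arrays, 99.0, 141, 115 and 89.8 on hairpin vector arrays and 111, 103, 110 and 128 on empty vector arrays, a log2 fold change of the tRNA vector over empty of 0.072 ± 0.28. Across the 12 arrays log2 signals of the brightest correlated with those of the second at r = 0.022 and of the third at r = -0.18, so the lower DCTN4 signal rests on 1 of 3 probe sets.

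**Figure D1:**
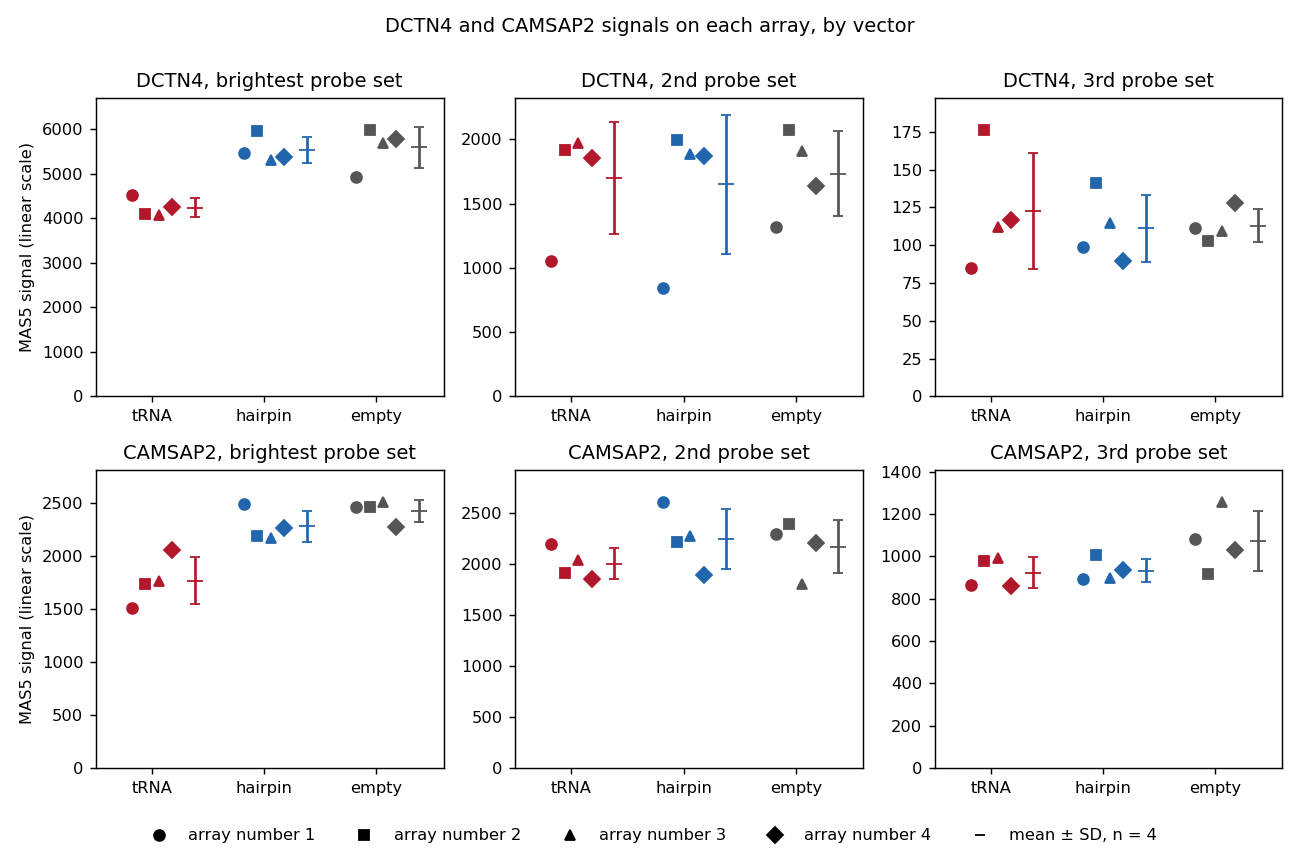
MAS5 signal (linear scale, from 0) of the 3 probe sets of DCTN4 and of CAMSAP2 on each of the 12 arrays, by vector, with symbols for the array number and bars for mean ± SD of 4 arrays. In the brightest probe set of each gene the 4 tRNA vector arrays lie below all 8 others (4071 to 4525 for DCTN4, 1509 to 2056 for CAMSAP2), and in the other probe sets the groups overlap.

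CAMSAP2 had 3 probe sets, all tested. The brightest had signals of 1509, 1738, 1765 and 2056 on tRNA vector arrays, 2492, 2193, 2172 and 2265 on hairpin vector arrays and 2460, 2459, 2511 and 2273 on empty vector arrays. The tRNA vector arrays again lay below all 8 others, and the arrays of the other groups overlapped. The means were 1767 ± 224, 2281 ± 147 and 2426 ± 105 for the tRNA, hairpin and empty vector (SD, n = 4). The log2 fold change of the tRNA vector was -0.46 ± 0.096 over the empty vector, a fold of 0.725, and -0.37 ± 0.096 over the hairpin vector. By moderated t it was the fifth lowest gene against the empty vector, next to LRRC58 at -0.40 just before it and RYBP at -0.35 just after it. Within the 3 levels of control RNA the difference from the empty vector was -0.70, -0.50 and -0.33, so here the arrays numbered 1 gave the largest.

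The second CAMSAP2 probe set was as bright as the first, with a ratio of their geometric mean signals of 1.00, so which of them stands for the gene was settled by a margin far below the array error. It had 2203, 1918, 2046 and 1859 on tRNA vector arrays, 2613, 2218, 2280 and 1891 on hairpin vector arrays and 2295, 2393, 1804 and 2205 on empty vector arrays. The groups overlapped, and the lowest of the 12 was an empty vector array. Its log2 fold change of the tRNA vector over empty was -0.11 ± 0.11, in the direction of the first probe set and smaller. The third had 862, 979, 990 and 859 on tRNA vector arrays, 892, 1007, 895 and 933 on hairpin vector arrays and 1080, 918, 1257 and 1028 on empty vector arrays, with log2 fold changes over the empty vector of -0.21 ± 0.11 in tRNA vector cells and -0.19 ± 0.11 in hairpin vector cells. The means of the tRNA vector were therefore below those of the empty vector in 3 of 3 CAMSAP2 probe sets, and those of the hairpin vector in 2 of 3. The pairwise correlations of the 3 probe sets over the 12 arrays were 0.25, 0.39 and -0.33.

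The remaining pointed-end subunits gave no such difference. DCTN5, which with DCTN6 forms a pair of small proteins at the pointed end, had 959, 1216, 1064 and 949 in its brightest probe set with the tRNA vector, 1127, 993, 882 and 784 on hairpin vector arrays and 979, 1149, 928 and 953 on empty vector arrays. The groups overlapped, at 0.061 ± 0.13 for the tRNA vector over empty and -0.091 ± 0.13 for the hairpin vector over empty on the log2 scale. The 3 further tested DCTN5 probe sets ran from -0.17 to 0.067 with the tRNA vector and from -0.079 to 0.11 with the hairpin vector. Among these the third had 505, 363, 456 and 438 on tRNA vector arrays against 427, 523, 508 and 520 on empty vector arrays, so that the tRNA vector was lower on the arrays numbered 2, 3 and 4 and higher on those numbered 1. Over arrays numbered 2 to 4, a subset chosen after seeing the data, its log2 fold change was -0.31 and these 2 groups did not overlap. On those arrays 5.98% of all tested probe sets lay wholly below and 5.35% wholly above, and the brightest DCTN5 probe set stood at 0.091.

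DCTN6, the partner of DCTN5, had 2152, 2140, 1631 and 1709 on tRNA vector arrays, 1791, 2086, 1612 and 1470 on hairpin vector arrays and 2021, 1971, 1588 and 1569 on empty vector arrays. Its log2 fold change was 0.093 ± 0.14 for the tRNA vector over empty, higher in 4 of 4 same-number comparisons, and -0.041 ± 0.14 for the hairpin vector over empty. With replicate number as a block the standard error of the hairpin vector value was 0.071. ACTR10, an actin-related protein of the pointed end, had 5198, 4873, 5019 and 4422 on tRNA vector arrays, 5161, 4763, 4286 and 4486 on hairpin vector arrays and 5880, 4833, 4184 and 4668 on empty vector arrays. It stood at 0.0047 ± 0.10 and -0.058 ± 0.10 for the tRNA and hairpin vector over empty. In both genes the 3 groups overlapped, while the signals separated by array number, DCTN6 between numbers 1 to 2 and 3 to 4 and ACTR10 between number 1 and the others.

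Among the shoulder subunits, DCTN1, the largest subunit, which binds dynein and microtubules, had 1471, 1704, 1407 and 1645 on tRNA vector arrays, 1832, 1551, 1285 and 1676 on hairpin vector arrays and 1262, 1583, 1442 and 1419 on empty vector arrays. The log2 fold change over empty was 0.13 ± 0.12 in tRNA vector cells and 0.15 ± 0.12 in hairpin vector cells, the highest of the members with each vector, and the groups overlapped. Its probe set is also of the type marked for possible cross-hybridisation, and 1 more, annotated to DCTN1 and SLC4A5 together, was not used. DCTN2, also called dynamitin, whose overproduction is known to break dynactin apart, had 4867, 5007, 5127 and 4862 on tRNA vector arrays, 5311, 4753, 5043 and 4900 on hairpin vector arrays and 5467, 5429, 4819 and 4814 on empty vector arrays. This brightest DCTN2 probe set stood at -0.045 ± 0.071 and -0.036 ± 0.071 for the tRNA and hairpin vector over empty. Its residual SD of 0.074 on the log2 scale was at the 2.24th percentile of the brightest probe sets of all genes (median 0.228). That ranking is not matched for signal, and the probe set was at the 96.9th percentile of mean log2 signal. The second DCTN2 probe set, given below, varied widely. DCTN3, the small shoulder subunit, had 6495, 5863, 6439 and 7033 on tRNA vector arrays, 6793, 5752, 6831 and 7044 on hairpin vector arrays and 6138, 6298, 6428 and 6732 on empty vector arrays, at 0.011 ± 0.081 and 0.042 ± 0.081.

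CAMSAP1, the relative of CAMSAP2 that tracks growing minus ends, had 3 tested probe sets. The brightest had 798, 947, 918 and 751 on tRNA vector arrays, 742, 783, 818 and 778 on hairpin vector arrays and 826, 803, 812 and 809 on empty vector arrays, whose 4 arrays spanned only 803 to 826. The log2 fold change over empty was 0.065 ± 0.10 in tRNA vector cells and -0.059 ± 0.10 in hairpin vector cells. The others gave -0.10 ± 0.10 and 0.025 ± 0.15 in tRNA vector cells and -0.048 ± 0.10 and 0.044 ± 0.15 in hairpin vector cells, in order of brightness. The 3 tested probe sets of CAMSAP1 correlated with each other at -0.44 to -0.018 over the 12 arrays. Its means therefore showed no direction that all of its probe sets shared.

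The comparison of the hairpin vector with the empty vector did not enter the choice of members, although it uses the same empty vector arrays. It asks whether CU1276 supplied as a hairpin moves these transcripts. In limma 0 of the 19 tested member probe sets passed (adjusted p = 0.9999 for each), 0 also had an unadjusted p under 0.05 against 2.65% of all tested probe sets, and 0 had groups that did not overlap, against 2.12%. For the brightest DCTN4 probe set the 95% interval of the fold was 0.881 to 1.11, and for that of CAMSAP2 it was 0.815 to 1.08. For the second DCTN4 probe set it was 0.616 to 1.35, and 0.780 to 1.07 with replicate number as a block. With that block 0 of the 19 again passed (lowest limma adjusted p = 0.899) and 0 had an unadjusted p under 0.05, against 5.40% of all tested probe sets. DCTN1 had the highest value of the 9 genes with the hairpin vector, 0.15, with an interval of the fold from 0.930 to 1.32. That value rested on the arrays numbered 1, where the difference was 0.54, and it was 0.073 without hairpin vector array 1 and 0.016 over arrays numbered 2 to 4.

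Over the 9 genes the median log2 fold change was 0.011 for the tRNA vector over empty, with 3 lower and 6 higher, and -0.041 for the hairpin vector over empty, with 7 lower and 2 higher. For all 13952 genes the medians were 0.0030 and 0.0042, with 49.3% and 48.8% lower. Counted by probe set, 10 of 19 were lower with the tRNA vector and 13 of 19 with the hairpin vector, against 50.1% and 49.2% of all tested probe sets. Groups without overlap were found for 2 of 19 probe sets in the tRNA vector comparison with the empty vector, both lower, against 1.43% of all tested probe sets that lay wholly below and 1.17% wholly above, 2.6% in all. The same 2 were again lower in the comparison with the hairpin vector, against 1.46% below, 1.17% above and 2.63% in all. These 2 are the probe sets that led to the choice, so nothing is read from the count. Without the 3 arrays numbered 1, the tRNA vector arrays lay wholly below those of the empty vector for 3 of 19 tested probe sets, the brightest of DCTN4 and CAMSAP2 and the third of DCTN5, and wholly above for 0, against 5.98% below and 5.35% above of all tested probe sets. With 3 arrays a group the hairpin vector arrays of the brightest CAMSAP2 probe set, 1 of 19, also lay below those of the empty vector, at -0.13 on the log2 scale, against 4.61% below and 4.96% above.

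**Figure D2:**
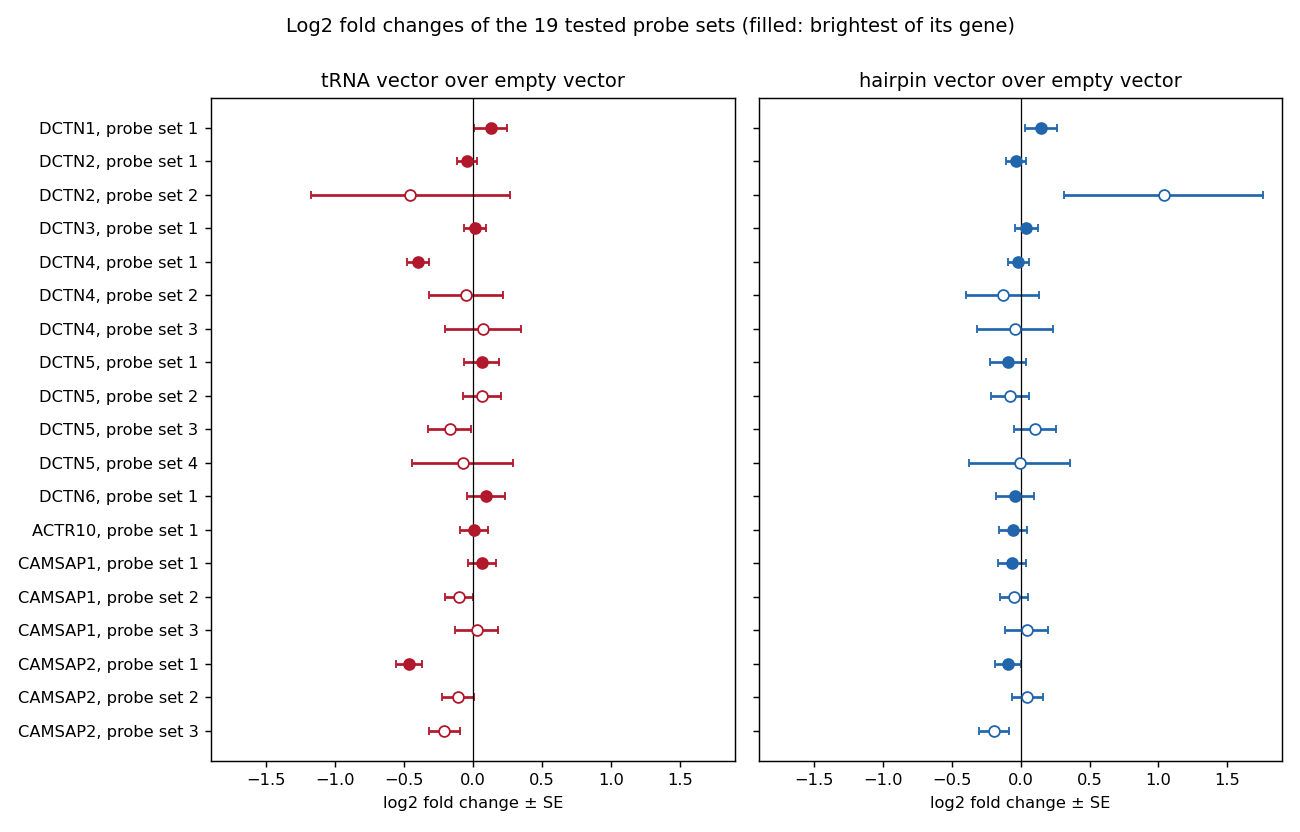
Log2 fold change ± limma standard error of the 19 tested member probe sets, for the tRNA vector over empty (left) and the hairpin vector over empty (right), with filled circles for the brightest probe set of each gene. The lowest points on the left are CAMSAP2 at -0.46, the second probe set of DCTN2 at -0.46 and DCTN4 at -0.40, and of these the DCTN2 probe set, close to the filter, has by far the widest bars (0.72).

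The dim and nearly dim probe sets varied widely within groups. The second DCTN2 probe set had 26.4, 27.0, 14.8 and 87.8 on tRNA vector arrays, 44.3, 204, 98.8 and 65.0 on hairpin vector arrays and 23.0, 146, 29.1 and 33.4 on empty vector arrays, at 1.04 ± 0.72 for the hairpin vector over empty. Its 95% interval ran from 0.704 to 5.98 as a fold. The 6 untested ones were the third of DCTN2, the fifth of DCTN5 and the fourth to seventh of CAMSAP1, with geometric mean signals of 7.43 to 41.0. Their log2 fold changes over empty ran from -1.10 to 0.32 with the tRNA vector and from -0.60 to 0.25 with the hairpin vector.

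Some single probe sets of the members followed the number of the array and not the vector, as did many on the whole array. The second DCTN4 probe set had 844 to 1322 on the 3 arrays numbered 1 and 1634 to 2072 on the 9 others, a fold of 0.555. The fourth DCTN5 probe set had 206 to 266 on arrays numbered 1 and 367 to 637 on the others, a fold of 0.456. In the other direction ACTR10 had 5161 to 5880 on arrays numbered 1 and 4184 to 5019 on the others, a fold of 1.17, and the third CAMSAP1 probe set had 711 to 804 against 509 to 704, a fold of 1.22. Thus 4 of the 19 tested probe sets, 2 lower and 2 higher, separated these 3 arrays from the other 9 without overlap, against 12.9% of all tested probe sets (7.26% lower and 5.6% higher). DCTN6 had 1791 to 2152 on arrays numbered 1 and 2 and 1470 to 1709 on those numbered 3 and 4, a fold of 1.27, a split that 3.81% of all tested probe sets also made, 1.45% in this direction. For a gene such as DCTN4, different probe sets thus moved differently between array numbers, and the part of control RNA level or any other difference between replicates in this was not tested.

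Within the 3 levels of control RNA most differences of the other members had no shared direction. With the tRNA vector over empty, from array number 1 upwards, DCTN1 had 0.22, 0.11 and 0.089 and DCTN6 0.091, 0.12 and 0.081, both higher at every level. DCTN2 had -0.17, -0.12 and 0.052, DCTN3 0.082, -0.10 and 0.033, DCTN5 -0.030, 0.082 and 0.095, ACTR10 -0.18, 0.012 and 0.092, and CAMSAP1 -0.049, 0.24 and 0.034. With the hairpin vector over empty ACTR10 had -0.19, -0.021 and -0.011 and CAMSAP1 -0.15, -0.035 and -0.023, both lower at every level. The signs differed between levels for the 7 others, with 0.54, -0.029 and 0.038 for DCTN1, -0.042, -0.19 and 0.046 for DCTN2, 0.15, -0.13 and 0.077 for DCTN3, and 0.15, -0.0057 and -0.10 for DCTN4. They were 0.20, -0.21 and -0.18 for DCTN5, -0.17, 0.081 and -0.036 for DCTN6, and 0.019, -0.16 and -0.11 for CAMSAP2.

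**Figure D3:**
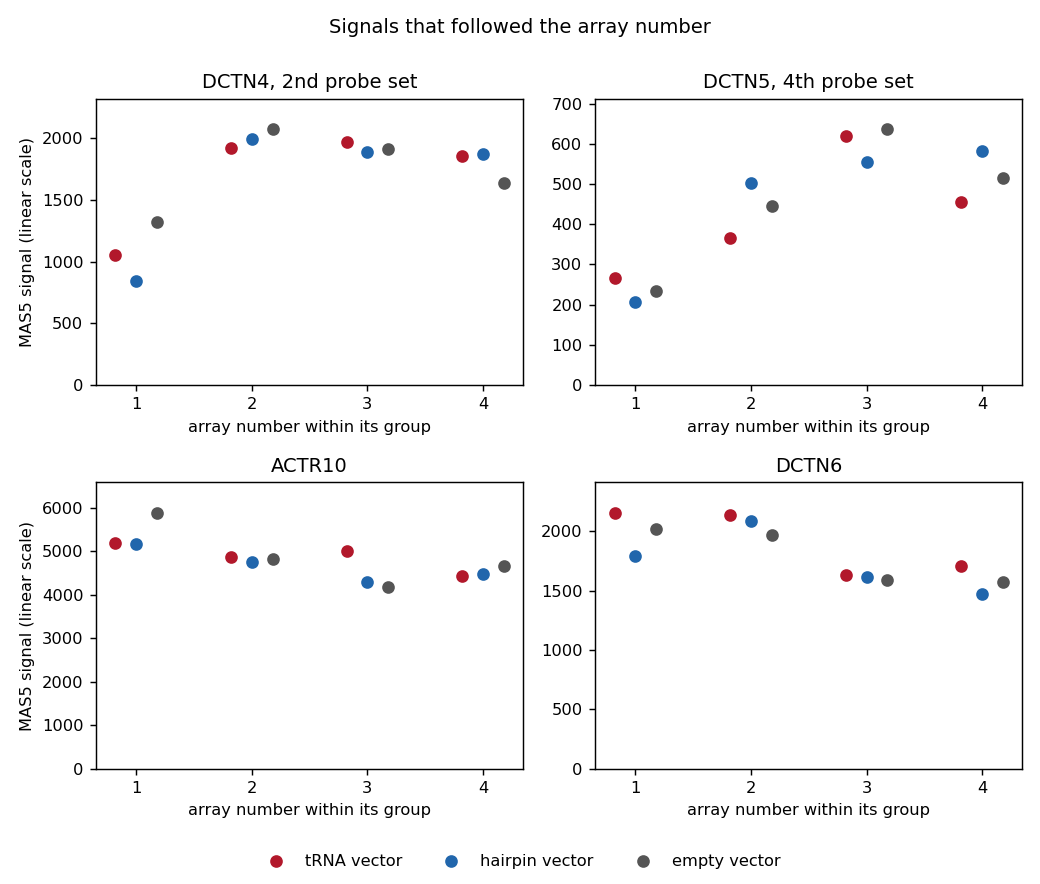
MAS5 signal (linear scale, from 0) of 4 member probe sets by array number, with 1 point per array coloured by vector. The arrays numbered 1 lie lowest for the second DCTN4 and the fourth DCTN5 probe set and highest for ACTR10, and those numbered 1 and 2 lie above those numbered 3 and 4 for DCTN6.

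Across the 12 arrays the log2 signals of the brightest DCTN4 and CAMSAP2 probe sets correlated at r = 0.75, which restates the choice, since both genes were picked for low signals on the tRNA vector arrays. After the mean of each group was taken off, r was -0.27. ACTR10 and DCTN2 correlated at 0.62 before and 0.64 after this step, DCTN6 and ACTR10 at 0.61 and 0.60, and DCTN6 and DCTN3 at -0.75 and -0.76. These points share arrays and the scaling of each array. Of 13952 genes, those whose brightest probe set was most like DCTN4 over the 12 arrays were RNPC3 (r = 0.883), C16orf92 (0.876) and MMP9 (0.873), with values of 0.593, 0.737 and 0.695 with the group means taken off. Most like CAMSAP2 were SNRPB2 (0.942), RBM5 (0.933) and IRF2 (0.911), at 0.889, 0.758 and 0.660 with the group means taken off. These genes were picked for the highest r with profiles that the choice had made low on tRNA vector arrays. All had lower mean log2 signals with the tRNA vector than with the empty vector, from -1.58 for C16orf92 to -0.20 for RBM5. Nothing is therefore read from their likeness, before or after the group means were taken off.

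The rest of the machinery around dynactin was read from 7 lists of 84 genes, of which 80 were measured. In limma 0 of the 80 passed with either vector (adjusted p = 1.00 on tRNA vector arrays and 0.9999 on hairpin vector arrays for each gene named), and at an unadjusted p under 0.05 there were 3 with the tRNA vector (1 lower, 2 higher, against 2.07% and 1.71% of all probe sets) and 2 with the hairpin vector (1 lower, 1 higher, against 1.22% and 1.43%). They were CLIP2 (lower) and HAUS7 and TUBB3 (higher) with the tRNA vector, and TUBGCP5 (lower) and HAUS7 (higher) with the hairpin vector, with TUBB3 at 0.21 ± 0.085 and named after its values were seen. The median of the 80 was 0.020 in tRNA vector cells and -0.0018 in hairpin vector cells. With the tRNA vector 0 of the 80 had groups without overlap, against 2.6% of all tested probe sets (1.43% wholly below and 1.17% wholly above). With the hairpin vector the exception was KANSL3, a chromatin protein that also binds microtubule minus ends, named after its values were seen, with 2374 to 2692 against 2769 to 3241 with the empty vector (1.06% of all tested probe sets lay wholly below, and 1.06% wholly above).

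Capping protein, which closes the barbed end of the dynactin filament, was represented by CAPZA1, CAPZA2 and CAPZB. By the brightest probe set all 3 had higher mean log2 signals with each vector, both set against the same empty vector arrays. They ran from 0.0036 ± 0.12 for CAPZA2 to 0.072 ± 0.24 for CAPZA1 with the tRNA vector. With the hairpin vector they ran from 0.032 ± 0.12 for CAPZA2 to 0.21 ± 0.24 for CAPZA1. CAPZA1 had 2998 on empty vector array 2 and 6527 to 6954 on the other empty vector arrays. Other tested probe sets shared the sign with the tRNA vector in 0 of 1 for CAPZA2 and 1 of 2 for CAPZB. With the hairpin vector they did in 1 of 1 and 2 of 2. Of the 10 measured dynein subunits 8 were higher and 2 lower with the tRNA vector and 3 higher and 7 lower with the hairpin vector, with medians of 0.059 and -0.019. The extremes with the tRNA vector were DYNC1LI2, a light intermediate chain that contacts adaptors, at -0.13 ± 0.080, and DYNC1I1, an intermediate chain, through which dynein binds DCTN1, at 0.14 ± 0.19. With the hairpin vector they were the other intermediate chain, DYNC1I2, at -0.061 ± 0.083, and DYNLT1, a light chain, at 0.17 ± 0.079. None of these differences passed the test.

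The 18 dynein regulators and cargo adaptors had log2 medians of -0.00050 over empty in tRNA vector cells and 0.0054 in hairpin vector cells. HOOK2, a cargo adaptor, was lowest with the tRNA vector at -0.20 ± 0.12, and BICDL1, an adaptor, lowest with the hairpin vector at -0.18 ± 0.19. RAB11FIP3, an adaptor for recycling endosomes, was the highest with both, with signals of 609.5 ± 92.4 with the tRNA vector, 551 ± 119 with the hairpin vector and 463 ± 145 with the empty vector (SD, n = 4), or 0.43 ± 0.21 and 0.27 ± 0.21 over empty.

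The list nearest in function to CAMSAP2, with 23 measured genes of minus-end binding, nucleation and severing, had medians of 0.019 in tRNA vector cells and -0.00073 in hairpin vector cells. CAMSAP3, the remaining family member, stood at 0.095 ± 0.22 and 0.035 ± 0.22. HAUS5, of the augmin complex that branches microtubules, was lowest with the tRNA vector at -0.18 ± 0.10, and TUBGCP5, of the gamma-tubulin ring, lowest with the hairpin vector at -0.28 ± 0.12. HAUS7, also of augmin, was highest with both, at 2076 ± 235 with the tRNA vector, 2082 ± 177 with the hairpin vector and 1762 ± 137 with the empty vector (SD, n = 4).

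Plus-end binders numbered 8, with medians of -0.00076 and 0.0097. CLIP2, a linker of membranes and microtubules, was lowest with the tRNA vector at -1.06 ± 0.48, from a low signal of 27.0 to 122 against 59.1 to 166 with the empty vector. MAPRE3, an end-binding protein, was highest with both at 0.32 ± 0.37 and 0.72 ± 0.37. Its signal was low too, 65.5 to 91.0 with the tRNA vector, 71.7 to 164 with the hairpin vector and 38.9 to 89.3 with the empty vector. The other tested MAPRE3 probe set shared the sign with the hairpin vector and not with the tRNA vector. CLASP1, which stabilises growing ends, was lowest with the hairpin vector at -0.10 ± 0.13. Kinesin 1, the motor towards the plus end, had 7 measured subunits with medians of 0.037 and -0.0028. Its extremes were the heavy chains KIF5B at -0.12 ± 0.093 and KIF5A at 0.17 ± 0.37 with the tRNA vector, and the light chain KLC3 at -0.21 ± 0.18 and KIF5A at 0.11 ± 0.37 with the hairpin vector. With the tRNA vector other tested probe sets shared the sign in 1 of 2 for KIF5B and 0 of 2 for KIF5A. With the hairpin vector they did in 0 of 1 for KLC3 and 1 of 2 for KIF5A. Of the 11 tubulins, whose near-identical sequences may share probe signal, 8 were higher with the tRNA vector (median 0.089) and 5 with the hairpin vector (median -0.015). TUBB was the highest with the tRNA vector at 0.24 ± 0.13 and TUBB4A the lowest at -0.098 ± 0.28, while with the hairpin vector TUBA4A stood at -0.15 ± 0.16 and TUBB4A at 0.17 ± 0.28.

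**Figure D4:**
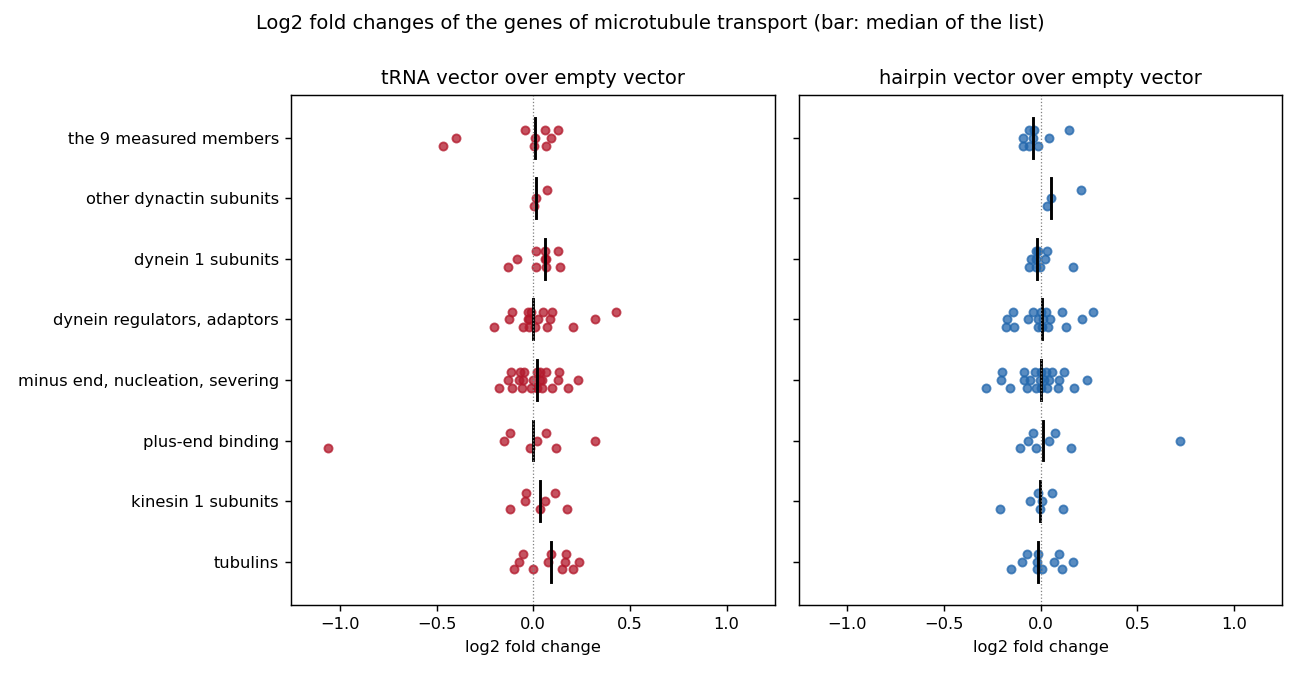
Log2 fold changes over the empty vector of the 9 measured members and of the 80 measured genes in 7 lists, with 1 point per gene (its brightest tested probe set) and a bar at the median of each list, for the tRNA vector (left) and the hairpin vector (right). The list medians lie between -0.041 and 0.089, and the low points of the first row on the left are CAMSAP2 and DCTN4.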

How the data were processed

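Expression was measured on 12 arrays, 1 per sample. The deposited values are MAS5 signal intensities, and the submitters' processing notes give no version. Every deposited column had a 2% trimmed mean of 500.1, a common intensity scale set by the authors. Genome build and annotation version are not given in the sources used here. Symbols came from the array's annotation, updated by Entrez identifier (0 changed).

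The deposited intensities were converted to log2 values without adding a constant. The 62 control probe sets and 21845 dim ones were left out. A model of 3 group means was fitted with limma 3.58.1 in R 4.3.3 (lmFit, eBayes with an intensity trend), adjusted by Benjamini-Hochberg over 32768 probe sets, threshold 0.05, two-sided, and was tested on simulated data. A gene was represented by its brightest tested probe set. Other probe sets of the list genes are given only where stated. Members and lists were chosen with earlier results of these data known. All members were named, and from each list the lowest and highest gene with each vector. Also named were the 3 genes most like DCTN4 and CAMSAP2. Alternatives were blocks for replicate number and control RNA level, quantile normalization, other filters and offsets, no trend, only the arrays compared, a plain two-sample test, other probe sets and each array left out. Deviations from group means of same-numbered arrays correlated above 0.1 in 4 of 4 pairs for hairpin and empty vector (0.108 to 0.333) and for tRNA and hairpin vector (0.113 to 0.356), so the numbers were taken to pair the samples there, from the data and not the labels, and in 3 of 4 for tRNA and empty vector (0.0987 to 0.284). The same number gave the highest correlation in 3, 4 and 2 of 4 pairs, in that order. The exceptions were arrays numbered 3 or 4, such as 0.134 for number 4 of hairpin and empty vector, where another number gave 0.148. Pairing by number is therefore not clear for arrays numbered 3 and 4. Values with the replicate block are given for the counts of calls, for the hairpin vector intervals of some members and for the hairpin vector standard error of DCTN6. Other standard errors are without it. The number of arrays limits the precision. Nothing in the labels says that replicates came from separate cultures beyond the word biological, so p values measure the spread between these samples.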

Additional observations from a re-analysis of the deposited data

Results flagged for a closer look

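In 57 groups of 4 arrays (19 tested member probe sets in 3 vector groups) 4 held an array far from the other 3 by Dixon's criterion, which chance alone meets in about 1 group in 20. All 4 were arrays numbered 1. The second DCTN4 probe set had 1050 on tRNA vector array 1 (others 1859 to 1972) and 844 on hairpin vector array 1 (others 1872 to 1995). The fourth DCTN5 probe set had 206 on hairpin vector array 1 (others 502 to 584). The third DCTN5 probe set had 427 on empty vector array 1 (others 508 to 523). Arrays numbered 1 also had the highest Bacillus control signals (1726 to 1834). Their GAPDH ratios of 3′ to 5′ signal were the highest too, at 1.47 (empty vector), 1.52 (tRNA vector) and 1.67 (hairpin vector). On all other arrays this ratio was 1.18 to 1.39. The same ratio for ACTB was highest on array 1 only with the hairpin vector (3.05). With the tRNA vector (2.74) and the empty vector (3.30) it was highest on array 2. The Bacillus control signals and the GAPDH ratios were highest on the same arrays, and the part of either in these values was not tested.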

How the results depend on the processing

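The tRNA vector values of DCTN4 and CAMSAP2 over empty chose these genes, so their steadiness is no support. With single arrays left out they ran from -0.46 to -0.37 and from -0.54 to -0.39, and blocks, filters, the trend and the plain test cannot move them. With the tRNA vector over empty the sign turned in 5 of 23 settings for ACTR10 (-0.067 to 0.097), in 4 for DCTN3 (-0.031 to 0.056) and in 1 for DCTN5 (-0.014 to 0.13), and with other probe sets for DCTN4 (probe set 3, 0.072), DCTN5 (probe sets 3 and 4, -0.17 and -0.076) and CAMSAP1 (probe set 2, -0.10). With the tRNA over the hairpin vector it turned in 5 settings for DCTN1, 4 for DCTN2 and 2 for DCTN3, and with other probe sets for DCTN4 (0.078 and 0.11), DCTN5 (-0.28 and -0.069) and CAMSAP1 (-0.055 and -0.018). Other probe sets turned the hairpin vector over empty for DCTN2 (probe set 2, 1.04), DCTN5 (probe set 3, 0.11), CAMSAP1 (probe set 3, 0.044) and CAMSAP2 (probe set 2, 0.049). Leaving out single arrays turned that comparison for DCTN6 (-0.13 to 0.036), ACTR10 (-0.13 to 0.034) and DCTN4 (-0.075 to 0.017). Using only arrays numbered 2 to 4, a setting chosen after seeing the data, put DCTN6 at 0.0029 and called 1 probe set between the vectors. Leaving out single arrays called 0 in each comparison.

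The replicate block called 0, 0 and 6 probe sets (tRNA over empty, hairpin over empty, tRNA over hairpin) and a block on the control RNA level 4, 3 and 8, with 0 member probe sets among them. Unadjusted counts were 2546, 1771 and 2596 with the replicate block, 2524, 1803 and 2601 with the control RNA block, 2240, 1870 and 2285 with no filter, and 823, 515 and 860 with the 60th percentile filter, against 1238, 867 and 1271, and 1917 for tRNA over empty on arrays numbered 2 to 4.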
